A study of Mus musculus with 6 samples.

Results

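The loci described here are transcribed regions of the mouse cornea that carry no gene symbol in the authors' table. The members were chosen by the measured FPKM itself: a locus was taken when its symbol was missing, its span was at least 1000 bases, and its highest FPKM (a level scaled for transcript length and library size) over the 3 groups was at least 0.5. This gave 2566 loci, 8.99% of the 28539 in the table, out of 4650 without a symbol; 1813 were too short and 271 were long enough but below the FPKM limit. The 3 groups were corneas of female C57BL/6J mice, 6 to 8 weeks old: untreated (day 0), and 5 or 15 days past a burn with alkali, an injury after which blood vessels grow into the clear tissue. Polyadenylated RNA of whole corneas was sequenced, with 2 samples in each group, and the labels do not say whether these came from separate animals. The table gives 1 FPKM per group, pooled over its samples, with the authors' interval, which stands in parentheses after a value below. No value of a single sample was given, so no spread between replicates and no test could be computed. The sequencing depth is unknown.

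A locus without a symbol arises when an assembler joins reads into a transcript that matches no annotated gene in the annotation used. Such loci can be long noncoding RNAs, unannotated ends of known genes, stretches of intron carried by unspliced RNA, copies of pseudogenes, or hosts of microRNAs, the short RNAs that pair through their seed with messenger RNAs and lower their output. In the cornea, microRNAs such as miR-184 and miR-204 are known for their abundance in the epithelium and neighbouring eye tissues.

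In these whole corneas, marker genes of the tissue were present. The summed FPKM of 7 corneal epithelial genes was 12060 at day 0, 2431 at day 5 and 3200.2 at day 15. Krt12, the main corneal keratin, was listed at 0 at day 0 with a status that marks the value as unusable. Most of the day 0 sum was Aldh3a1, at 9150, 303 and 866. Clu (129, 780 and 477) and Krt14 (180, 500 and 760) went the other way. By the rule given below, 1 of the 7 was lower and apart at day 5 and 1 was higher and apart. Of 5 keratocyte genes, 3 were lower and apart at day 5 by the rule given below. The sum of all 5 was 4532, 1668 and 2499.9 at days 0, 5 and 15. Most of this sum was Dcn, at 3484, 1388 and 2104 and not apart, and Lum did not fall (237, 243 and 286). The sum of 3 corneal endothelial genes differed little, at 176, 185 and 170, but Slc4a11 among them was lower and apart at both later times (55.9, 3.10 and 1.04). Summed markers of other cells moved with the groups. The sum of 3 neutrophil genes was 21.3, 390.1 and 99.8, that of 3 blood vessel genes 5.64, 18.9 and 16.5, that of 3 red blood cell genes 6.89, 205 and 73.1, and that of 4 macrophage genes 653, 988 and 1266. The last sum includes the Cd68 row, which joins Cd68 with Eif4a1 and other genes and stood at 579, 587 and 559. Lyz2, the macrophage lysozyme, was at 68.3, 385 and 685. Among the blood vessel genes, Kdr stayed near its day 0 value (3.66, 3.47 and 3.88). Lens genes (4) summed to 282, 24.8 and 189.8, muscle genes (3) to 466, 281 and 61.4, photoreceptor genes (3) to 42.6, 15.9 and 81.3, and goblet cell genes (3) to 9.87, 78.1 and 437. The markers at 0 in some group were Krt12, Tff1 and Hbb-bt, all at day 0. All 4 Y-linked genes looked at were at 0 in every group. The part of these cell types in the results below was not tested, and in whole tissue fewer cells of a type and less RNA per cell cannot be told apart.

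The mature sequences of 10 microRNAs are shown because 179 members lie on or near rows that name a microRNA gene or its host. Values at some of these loci are given below. The sequences are from RefSeq (GRCm38.p6), written from the 5′ end, with the seed (bases 2 to 8) in capitals. The deposited values measure polyadenylated RNA at these loci, not the mature microRNAs. miR-184 lies at chr9:89802263-89802284 on the minus strand, inside the span of 3 members, and miR-204 at chr19:22750610-22750631 on the plus strand, in the region of the ion channel gene Trpm3, next to which another member lies. miR-31 lies at chr4:88910614-88910635 and miR-221 and miR-222 at chrX:19146307-19146329 and chrX:19146901-19146923, all on the minus strand. Among the sequences shown, miR-181a and miR-181b share a seed, let-7b and let-7c share another, and miR-221 and miR-222 a further one.
mmu-miR-184-3p: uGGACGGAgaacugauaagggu
mmu-miR-204-5p: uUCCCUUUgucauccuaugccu
mmu-miR-31-5p: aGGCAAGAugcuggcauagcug
mmu-miR-181a-5p: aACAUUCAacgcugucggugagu
mmu-miR-181b-5p: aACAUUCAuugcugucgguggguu
mmu-let-7b-5p: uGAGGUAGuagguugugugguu
mmu-let-7c-5p: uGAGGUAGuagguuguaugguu
mmu-miR-221-3p: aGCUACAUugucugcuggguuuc
mmu-miR-222-3p: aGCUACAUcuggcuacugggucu
mmu-miR-99a-5p: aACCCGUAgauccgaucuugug

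For members with a readable strand, the RefSeq promoter table (GRCm38.p6, 250 bases before to 50 after each gene's start) was searched for a start on the same strand within 300 bases of the member's 5′ end. It matched 71 of 439 such members. The 5 of these that were apart in any comparison are shown. Of them, 4 were lower after the burn and Gm52620 was higher at day 15. Each window lies at or near the 5′ end of its member. The 5′ ends of XLOC_013831 (chr2:106080712) and XLOC_005220 (chr12:27946241) fall just outside the Dcdc5 and Gm45941 windows. Capitals mark TATAAA and CCAAT, searched on both strands (TTTATA and ATTGG on the other strand) and counted separately. The windows are chr2:106080749-106081048 on the plus strand for Dcdc5, chr12:27945934-27946233 on the plus strand for Gm45941, chr7:9065391-9065690 on the minus strand for Zfp419, chr15:80438554-80438853 on the minus strand for Gm31369 and chr3:153078021-153078320 on the plus strand for Gm52620.
Dcdc5: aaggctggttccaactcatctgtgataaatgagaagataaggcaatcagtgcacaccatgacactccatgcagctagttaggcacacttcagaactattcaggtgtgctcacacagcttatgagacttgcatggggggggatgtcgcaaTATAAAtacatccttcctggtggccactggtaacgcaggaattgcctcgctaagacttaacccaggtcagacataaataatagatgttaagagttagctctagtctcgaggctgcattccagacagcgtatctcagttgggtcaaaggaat
Gm45941: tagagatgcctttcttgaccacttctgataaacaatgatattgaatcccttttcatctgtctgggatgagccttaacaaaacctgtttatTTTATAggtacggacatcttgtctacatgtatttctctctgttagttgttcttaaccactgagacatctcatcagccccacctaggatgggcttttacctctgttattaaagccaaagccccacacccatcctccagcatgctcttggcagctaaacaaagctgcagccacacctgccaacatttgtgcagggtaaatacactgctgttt
Zfp419: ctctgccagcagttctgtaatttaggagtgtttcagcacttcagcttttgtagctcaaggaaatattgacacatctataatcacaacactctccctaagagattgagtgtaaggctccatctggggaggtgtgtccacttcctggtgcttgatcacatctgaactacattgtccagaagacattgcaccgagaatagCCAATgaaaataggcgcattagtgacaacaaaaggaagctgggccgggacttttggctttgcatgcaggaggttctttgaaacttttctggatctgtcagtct
Gm31369: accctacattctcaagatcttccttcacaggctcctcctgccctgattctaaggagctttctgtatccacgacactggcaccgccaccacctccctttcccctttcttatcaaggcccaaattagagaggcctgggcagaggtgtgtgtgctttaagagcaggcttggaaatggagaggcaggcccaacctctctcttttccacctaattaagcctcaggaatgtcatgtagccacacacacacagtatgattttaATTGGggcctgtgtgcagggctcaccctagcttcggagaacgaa
Gm52620: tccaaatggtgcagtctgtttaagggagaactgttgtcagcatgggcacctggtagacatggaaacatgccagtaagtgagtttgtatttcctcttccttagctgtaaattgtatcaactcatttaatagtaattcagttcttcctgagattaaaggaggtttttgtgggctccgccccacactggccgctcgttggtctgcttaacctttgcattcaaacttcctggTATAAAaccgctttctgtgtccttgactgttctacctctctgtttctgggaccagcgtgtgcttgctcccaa

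Positions are counted from the start of the RefSeq gene, not from that of the member. In Gm52620 the TATAAA begins 22 bases before the start and in Dcdc5 101 bases before it, which is inside the span of XLOC_013831. In Gm45941 the TTTATA begins 160 bases before the start. Zfp419 has a CCAAT that begins 53 bases before the start, and the ATTGG of Gm31369 lies just after the start. Over the 71 matched promoters, 11 (15.5%) held TATAAA and 21 (29.6%) held CCAAT, beside 13.6% and 37.4% of all 32851 promoters of the same length. Their median GC content was 52.3% and that of all promoters 52.7%. A match of letters is a description and does not show a site in use.

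The members fell into 2 kinds by their span. For 633 members the span was the same as that of a row with a gene symbol, because the table gives the whole bundle of reads as the locus, and their own place within it is unknown; these used 193 named spans. The other 1933 had a span that no named gene shares, on 1715 distinct spans, and in these position can be read from the GENCODE M21 annotation on the same build. Of the 1933, 769 overlapped an exon of an annotated gene, 297 lay inside a gene without touching an exon, 490 lay within 5000 bases of a gene and 377 lay farther away. Among the 490 near a gene, 272 lay downstream of it and 218 upstream, at a median distance of 2120.5 bases. Only 210 of the members on their own span matched the extent of 1 annotated gene by an overlap of at least 0.5 of the joint length, and 117 of those genes are long intergenic noncoding RNAs, 30 are protein coding, 13 are unconfirmed transcripts (TEC) and 10 are antisense RNAs. Members were found on 22 chromosomes, from 241 on chromosome 1 to 1 each on chromosome Y and the mitochondrial genome.

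**Figure D1:**
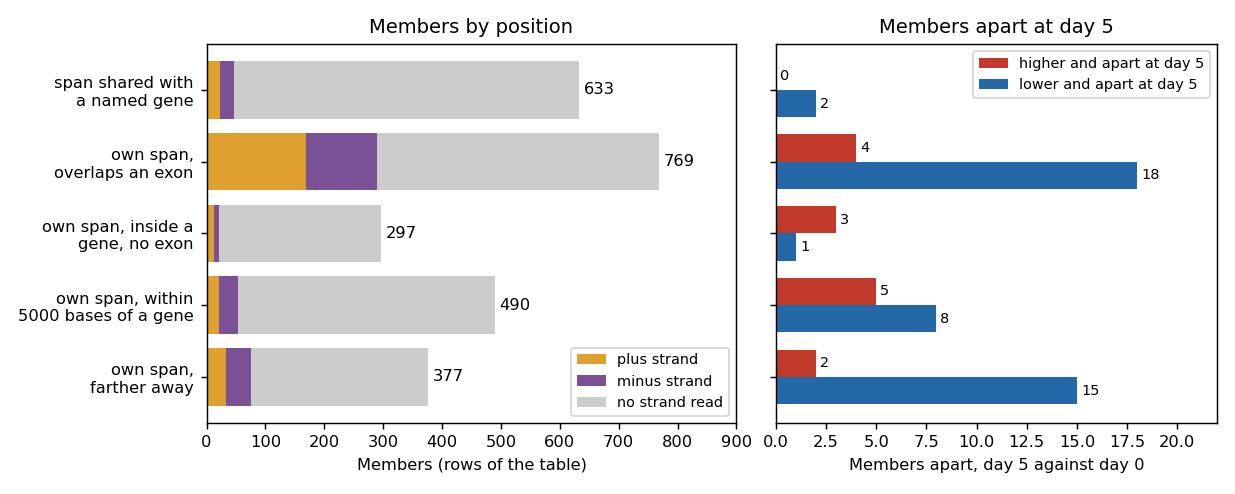
Left, the number of members (rows of the table) by position, split by the strand read from the order of rows; right, how many of each class were higher or lower and apart at day 5 against day 0. Members on a span shared with a named gene number 633, and 2 of them were apart (98.6% have an interval that begins at 0 in their highest group), while 15 of the 377 members far from any gene were lower and apart.

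The strand of a member is not a column of the table, but the rows of each chromosome run in 3 blocks. Among named genes with an annotated strand, 98.3% of the first block are on the plus strand and 98.4% of the second on the minus strand, and 4096 of the 4114 rows of the third block carry no symbol. By this order 259 members are on the plus strand, 227 on the minus strand and 2080 have no strand.

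Levels were low. The median of the highest FPKM was 1.08, beside 9.32 for 14460 named loci under the same limits on span and FPKM. Of the members, 1177 stayed below an FPKM of 1, 1090 lay from 1 to below 5, 236 from 5 to below 20, and 63 at 20 or more. The limits chose the members on this value, so their levels are a description. The median span was 3028.5 bases, beside 29670.0 for the named loci. The lower bound of the authors' interval in the highest group was 0 for 80.9% of members and 18.9% of named loci, and for 98.6% of the members on a span shared with a named gene. The group with the highest FPKM was day 0 for 1234 members (48.1%), day 5 for 977 (38.1%) and day 15 for 355 (13.8%); for the named loci these shares were 45.1%, 30.5% and 24.4%. The median FPKM of members was 0.786 at day 0, 0.722 at day 5 and 0.533 at day 15.

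At the FPKM limit, the members just inside were XLOC_017063, XLOC_024100 and XLOC_015409, at highest FPKM values that round to 0.5, and the loci just outside were XLOC_008238 (0.499), XLOC_021800 (0.498) and XLOC_011526 (0.498). At the span limit, XLOC_001440, XLOC_001550 and XLOC_003073 spanned exactly 1000 bases, and XLOC_024054 (999), XLOC_025510 (999) and XLOC_003014 (998) fell short. The longest spans belonged to XLOC_016242 and XLOC_016812, which share 937492 bases around Naaladl2, and to XLOC_025495 on the span of Tenm3, a teneurin adhesion gene, and XLOC_021781 on that of Foxp1, a forkhead transcription factor. XLOC_016242 stood at 2.37 (0.529 to 4.21) at day 0, 5.91 (2.48 to 9.33) at day 5 and 5.80 (2.24 to 9.37) at day 15, with overlapping intervals.

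Most of the highest members had intervals too wide to order the groups. XLOC_005361 (chr12:80032823-80036480), inside the lincRNA gene Gm36660 but on none of its exons, stood at 744433 at day 0, 148266 at day 5 and 213210 at day 15, with a lower bound of 0 in each group. XLOC_019825 (chr5:108691405-108693913), which overlaps an exon of the fibroblast growth factor receptor-like gene Fgfrl1, stood at 389403, 200416 and 537528, again from a bound of 0. Only 3 members exceeded an FPKM of 1000, these 2 and the next. XLOC_002774, which overlaps an exon of the monocarboxylate transporter gene Slc16a7 on chromosome 10, was at 7939 (0 to 23618) before the burn, listed at 0 on day 5, and on day 15 at 909 (907 to 911). The single mitochondrial row, XLOC_027285, spans nearly all of that genome and stood at 193, 504 and 517, with overlapping intervals. Among the other members in the highest ranks were XLOC_008744 on the span of the epithelial transcription factor gene Grhl2 (288, 246 and 460), XLOC_025330 over an annotated exon of the transcription factor gene Maf (110.3, 252 and 336), XLOC_005946 on exons of Ahnak2 (159, 102 and 118), XLOC_000413 on Plekha6 (125, 24.7 and 39.0) and XLOC_007483 on the T cell receptor segment Trdv4 (7.29, 56.5 and 42.8). None of these 5 was apart between any pair of groups.

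The first comparison asks which members differed 5 days after the burn from the untreated cornea. A locus is called apart when its status was OK in both groups, the higher group had an FPKM of at least 1, the log2 ratio of (FPKM + 1) reached 1 in either direction, and the 2 intervals were free of overlap. Of 1328 members with an FPKM of at least 1 in either group, 44 (3.31%) were lower and apart and 14 (1.05%) were higher and apart. Over the 15576 loci of the table that reach this FPKM, members included, these shares were 2.5% and 3.42%. Without the interval rule, 280 members (21.1%) were lower and 196 (14.8%) higher, beside 11.1% and 10.8% of those loci, so the order of the shares of higher loci depends on the intervals. Where the higher group lay from 1 to below 2, 2.25% of 667 members and 0.856% of 1285 named loci were lower and apart, and 1.35% and 1.32% were higher and apart. From 2 to below 5, 4.72% of 381 members and 1.70% of 2535 named loci were lower, and 1.05% and 2.84% higher. From 5 to below 20 (225 members), 3.56% and 2.01% were lower, and 0% and 3.67% higher. At 20 or more (55 members), 5.45% and 4.27% were lower, and 1.82% and 5.53% higher. The median log2 ratio was -0.30 for members and -0.09 for all loci. In 12 of the 44 lower members the day 5 value was 0 with an interval of no width, which is easily apart.

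Calls by the intervals differed between kinds of span, and so did the intervals. Members with their own span and a strand gave 22 lower calls among 368 (5.98%) and 1 higher call. Those with their own span and no strand gave 20 lower calls and 13 higher calls among 557. On spans shared with a named gene, 2 of 403 were lower and none was higher, but nearly all of these members have an interval that begins at 0 and can hardly be apart. Without the interval rule, 17.6% of the 403 were lower and 14.4% higher, beside 16.7% and 13.3% of the members with their own span and no strand. Far from any gene, 15 of 169 (8.88%) were lower and apart and 2 higher, while among those overlapping an exon 18 of 489 (3.68%) were lower. These are counts of rows, not of separate transcripts. Among the lower rows of this farther class, XLOC_020550 and XLOC_021167 share a span, and XLOC_011608 and XLOC_011609 lie side by side. The class counts the distance to annotated genes only, and a deposited locus with a symbol can lie nearer. XLOC_027221, lower, lies 336 bases from that of Mir184, and XLOC_003007, higher, 3682 bases from that of Btg1.

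**Figure D2:**
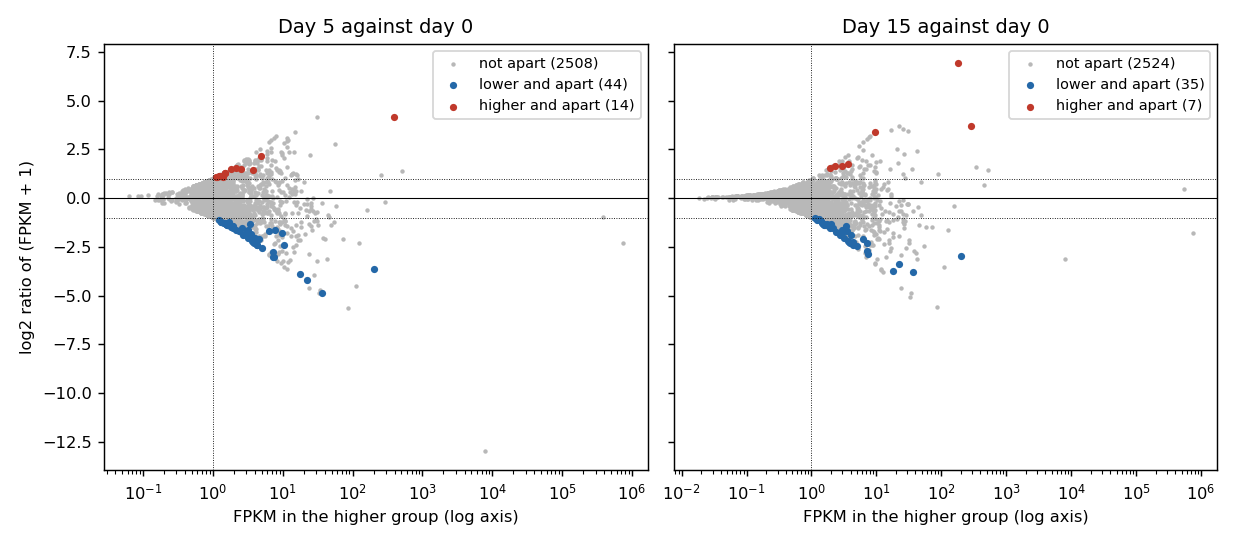
Log2 ratio of (FPKM + 1) of each member against its FPKM in the higher of the 2 groups (log axis), for day 5 and day 15 against day 0; coloured points are apart and dotted lines mark the limits of FPKM 1 and a log2 ratio of 1 in size. At day 5, 44 members lie apart below the line and 14 above it; at day 15, 35 and 7; 3 members at 0 in both groups of the right panel cannot be drawn.

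Several of the largest differences lay over a lincRNA gene or away from annotated genes. XLOC_020650 (chr6:81981186-81992682, plus strand), which covers most of the lincRNA gene Gm20383, stood at 36.4 (17.1 to 55.7) at day 0, 0.284 (0 to 0.765) at day 5 and 1.73 (0 to 3.47) at day 15. The log2 ratio of -4.86 at day 5 was the lowest among the members that were apart, while Gcfc2, the nearest named locus, was at 3.26, 2.12 and 2.62 and was not apart. XLOC_005712 (chr12:56088271-56093461, minus strand) lies 31516 bases from the nearest annotated gene and stood at 22.2 (5.70 to 38.6), 0.276 (0 to 0.736) and 1.2 (0 to 2.51). In both, the day 0 interval lay above those of both later groups. XLOC_014934 (chr2:114421570-114425252, minus strand), 91164 bases from Dph6, an enzyme of diphthamide synthesis, was at 17.9 (3.52 to 32.2), 0.247 (0 to 0.531) and 0.399 (0 to 1.15). Dph6 itself was at 16.3, 15.7 and 11.7, and was not apart.

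The most abundant of the lower members lies over an annotated pseudogene. XLOC_013831 (chr2:106080712-106357106, plus strand) covers much of Dcdc5, a doublecortin-domain gene annotated as a transcribed pseudogene. The nearest named locus, 77162 bases away, is Paupar, a noncoding RNA gene beside the eye transcription factor gene Pax6, at 2.43, 1.31 and 1.71 and not apart. The member stood at 201 (71.3 to 331) at day 0, 15.2 (0 to 31.5) at day 5 and 24.9 (0.0296 to 49.7) at day 15. Day 0 was thus apart from both later groups, with log2 ratios of -3.64 and -2.97. XLOC_013835 (chr2:106398509-106416580), over another exon of Dcdc5 and chosen after its values were seen, stood at 3.55 (1.30 to 5.80), 0.251 (0 to 0.520) and 0.426 (0 to 0.868).

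The other large differences of this direction were of low members. XLOC_019810 (chr5:107084242-107090036), 16389 bases from Tgfbr3, the co-receptor betaglycan of transforming growth factor beta, was at 7.51 (2.51 to 12.5), 0.0358 (0 to 0.146) and 0.159 (0 to 0.403), while Tgfbr3 was at 25.2, 12.7 and 13.9 and was not apart. XLOC_009309 (chr15:99588094-99590940), which overlaps an annotated exon of Aqp5, the water channel of the corneal epithelium, and lies 87 bases from the deposited Aqp5 locus, was at 7.28 (3.22 to 11.3), 0.213 (0 to 0.520) and 0.653 (0 to 1.34). XLOC_015706 (chr3:50901053-50902368) was at 4.99 (0.516 to 9.46), 0 and 0.0886 (0 to 0.323). XLOC_024044 has the span of the vomeronasal receptor gene Vmn2r43, so its own place is unknown, and stood at 7.18 (1.61 to 12.7), 0 and 0.224 (0 to 0.596). Vomeronasal receptors form a family of near-identical copies, so reads of this locus may be shared with others.

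Among the members higher at day 5, only XLOC_011133 passed an FPKM of 5. This member (chr17:34996697-35000331, minus strand) lies 575 bases from Vars, the valyl-tRNA synthetase gene, in a region dense with genes. It stood at 21.3 (10.2 to 32.4) at day 0, 391 (200 to 583) at day 5 and 285 (157 to 412) at day 15, so both later intervals lay above that of day 0, with log2 ratios of 4.13 and 3.68. Vars was at 8.22, 14.8 and 12.5 and was not apart.

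The other members of the higher rule were far lower. XLOC_007117 (chr13:11535993-11537254), 7141 bases from the pseudogene Zp4-ps, was at 0.344 (0 to 0.869), 4.93 (1.17 to 8.70) and 1.32 (0 to 2.70). XLOC_015552 (chr2:157137366-157139208), 2143 bases from Samhd1, a nucleotide-cleaving enzyme that limits viruses, was at 0.0739 (0 to 0.215), 2.11 (0.329 to 3.90) and 1.43 (0.130 to 2.73). XLOC_007128 (chr13:16029274-16032011), 873 bases from the deposited locus of Inhba, which encodes a subunit of activin, and over the annotated gene, was at 0.272 (0 to 0.648), 2.51 (0.682 to 4.35) and 2.96 (0.852 to 5.07). In these last 2, the named neighbour was higher and apart as well: Samhd1 at 16, 66 and 54.9, and Inhba at 0.51, 7.98 and 11.

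A member beside Neat1 was higher at day 5 while its neighbour was not. XLOC_013143 (chr19:5821527-5825778) lies 69 bases from the named locus of Neat1, the noncoding RNA that forms nuclear paraspeckles, and overlaps an annotated exon of it. It stood at 0.784 (0.0740 to 1.49), 3.79 (1.58 to 6.00) and 1.37 (0.336 to 2.40), while Neat1 was at 326 (142 to 510), 231 (49.5 to 413) and 222 (91.1 to 353) with overlapping intervals. XLOC_011525 (chr17:26501282-26503309), 2281 bases from Dusp1, a phosphatase of stress kinases, and over an annotated exon of another locus, was at 0.0167 (0 to 0.0765), 1.47 (0.139 to 2.80) and 0.310 (0 to 0.700). XLOC_027247 (chr9:111000619-111001970), inside the noncoding gene Gm10030, was listed at 0 in the untreated group, with 1.79 (0.116 to 3.46) and 0.599 (0 to 1.34). XLOC_027200 on chromosome 9 belongs to a run of members described below.

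**Figure D3:**
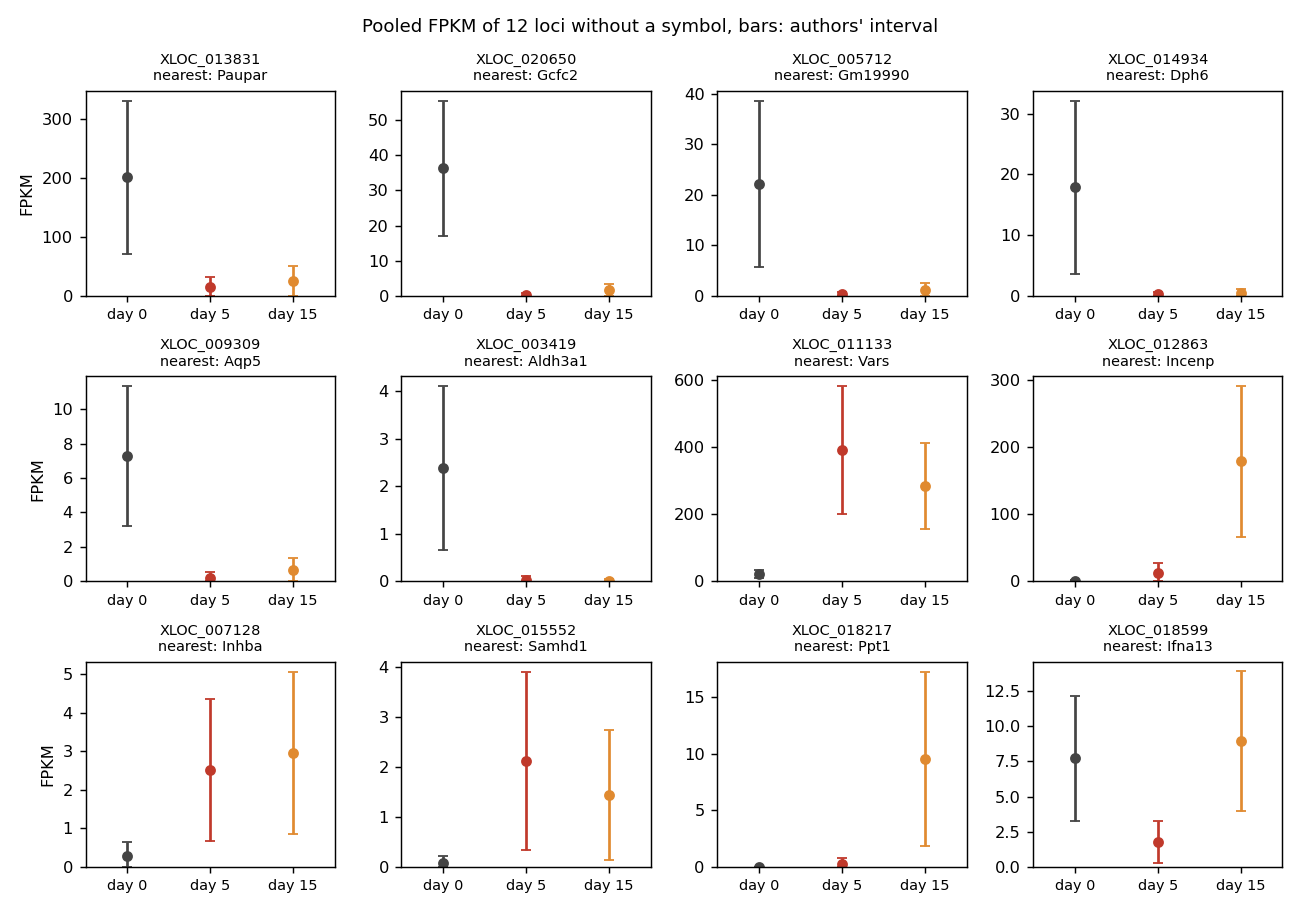
Pooled FPKM of 12 members in the 3 groups (points) with the authors' interval (bars), each panel with its own axis from 0 and the nearest named locus. In the first 6 panels day 0 is the highest group, XLOC_011133 is high at days 5 and 15, and XLOC_012863 reaches 179 at day 15 only.

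At day 15 the question is what still differed from the untreated cornea later on. Of 1179 members tested, 35 (2.97%) were lower and apart and 7 (0.594%) higher and apart, beside 1.81% and 2.91% of the 15186 loci tested. Without the interval rule, 299 (25.4%) were lower and 95 (8.06%) higher, beside 9.43% and 8.36% of those loci. The median log2 ratio was -0.50 and that of all loci -0.10. The members far from any gene gave 13 lower calls among 133, and those on a span shared with a named gene 2 among 369, where the intervals again hardly allow a call. Without the interval rule, 28.2% of these 369 were lower. The day 0 samples are the same as in the first comparison, so the counts of the 2 comparisons are not independent.

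One intergenic member had its highest value at day 15. XLOC_012863 (chr19:9700172-9744125, minus strand) lies 82992 bases from the nearest annotated gene and stood at 0.5 (0 to 1.29) at day 0, 11.6 (0 to 26.6) at day 5 and 179 (66.7 to 291) at day 15. The day 15 interval lay above both earlier ones, with log2 ratios of 6.91 against day 0 and 3.83 against day 5. XLOC_018217 (chr4:122752091-122793751, minus strand), over the pseudogene Gm12873, was listed at 0 in the untreated group, with 0.214 (0 to 0.745) at day 5 and 9.51 (1.79 to 17.2) at day 15, apart from both. Other cells' markers were also highest at day 15, the goblet cell genes at a summed 437 against 9.87 at day 0, and their part in these 2 values was not tested.

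The remaining higher members at day 15 were modest. XLOC_015339 (chr2:5234390-5237068), 79 bases from Ccdc3, was at 0.377 (0 to 0.826), 2.52 (0.591 to 4.44) and 3.63 (1.21 to 6.06), and Ccdc3 itself was at 13.1, 71.9 and 109. XLOC_016184 (chr3:153078263-153145952), whose 5′ end lies on the Gm52620 promoter shown above, was at 0.0529 (0 to 0.196), 1.67 (0.114 to 3.22) and 2.26 (0.352 to 4.18). XLOC_024519 (chr8:71823745-71828821), over the pseudogene Gm5373, was listed at 0 in the untreated group, with 0.561 (0 to 1.22) and 1.96 (0.357 to 3.56). In each of these 3, the day 15 interval lay above that of day 0 and overlapped that of day 5.

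Among the lower members at day 15, the largest differences were those of XLOC_020650 (-3.78), XLOC_014934 (-3.75), XLOC_005712 (-3.40), XLOC_013831 (-2.97), XLOC_019810 (-2.88), XLOC_024044 (-2.74) and XLOC_015706 (-2.46), with the values given above. XLOC_022969 (chr7:9058252-9065466, minus strand), which covers the zinc finger pseudogene Zfp419 and whose promoter is shown above, had the other value in this rank: 4.32 (0.342 to 8.30) at day 0 and listed at 0 at both later times.

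Few members were apart between the burned groups. Of 975 members tested for day 15 against day 5, 4 were higher and apart and 1 was lower, 0.410% and 0.103%, beside 0.395% and 0.388% of the 14683 loci tested. The higher ones were XLOC_002774, whose day 5 value was 0, XLOC_012863, XLOC_018217 and XLOC_018599. XLOC_018599 (chr4:88650781-88653086), 6321 bases from the interferon gene Ifna13, was at 7.71 (3.25 to 12.2) at day 0, 1.75 (0.273 to 3.24) at day 5 and 8.92 (3.94 to 13.9) at day 15. The day 5 interval lay below both others, if narrowly. The lower one was XLOC_005138, inside the gene of Cyth1, an exchange factor for ARF proteins, at 0.219 (0 to 0.482), 1.83 (0.439 to 3.22) and 0.158 (0 to 0.363), while Cyth1 was at 35.5, 19.2 and 18.1. Without the interval rule, 57 members (5.85%) were higher and 100 (10.3%) lower, beside 2.62% and 3.35% of those loci.

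Each member was then set beside its nearest locus with a symbol, to see whether it moved with its neighbour. Of 844 members on their own span within 5000 bases of a named locus, 531 (62.9%) had a log2 ratio of the same sign as that locus at day 5. The correlation across these pairs was 0.39 by Pearson and 0.40 by Spearman, as a description, since the points share libraries and lie side by side on the genome. With a neighbour 5000 to 50000 bases away, 425 of 717 pairs (59.3%) had the same sign, and beyond 50000 bases 191 of 371 (51.5%). A pair with a ratio of exactly 0 counts as not of the same sign, so these shares have no fixed level without agreement. The correlations differed less with distance: Pearson 0.29 and Spearman 0.36 at 5000 to 50000 bases, and 0.30 and 0.32 beyond. On spans shared with a named gene, the same sign was seen in 471 of 633 (74.4%) at day 5 and 326 of 633 (51.5%) for day 15 against day 5. The distance is to the neighbour's span in the deposited table, and annotated exons of the same gene can reach beyond it. Reads at the end of a gene and reads of a separate transcript cannot be told apart here.

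Among the members that were apart at day 5, the neighbour was apart in the same direction for 13 of 21 within 5000 bases, 1 of 19 at 5000 to 50000 bases, and 0 of 16 beyond. Many neighbours of the last set, such as Gm19990 and Gm1720, stayed below an FPKM of 1 in every group and could not be called. C530044C16Rik (0.0314, 0.0712 and 0.0326) was the neighbour of several of the 16. The fall with distance was thus partly fixed by the rule. The members named in the next sentences were chosen after their values were seen. XLOC_009248 (chr15:74736985-74738406), 2671 bases from Lypd2, a gene of the Ly6 family of surface proteins, was at 3.8 (0.806 to 6.79) at day 0 and listed at 0 later, while Lypd2 was at 13645, 1.37 and 1.96. XLOC_003419 (chr11:61198947-61204333), 3631 bases from Aldh3a1, the aldehyde dehydrogenase that fills corneal epithelial cells, was at 2.38 (0.653 to 4.11), 0.0315 (0 to 0.102) and 0.00944 (0 to 0.0550), while Aldh3a1 was at 9149.9, 303 and 866. These members held a small fraction of the value of their neighbour in every group.

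Other pairs of this kind lay at genes of adhesion, water and ion transport. XLOC_010179 and XLOC_010180, both over annotated exons of Lsamp, a cell adhesion gene, and 62 and 1796 bases from its deposited locus, were at 4.54, 0.272 and 0.893, and at 3.15, 0.316 and 1.09, and Lsamp was at 59.9, 1.68 and 4.90. XLOC_009310, 423 bases from Aqp5, was at 4.04, 0.211 and 0.381, and Aqp5 at 1062, 25.6 and 104. XLOC_013181 (chr19:22992295-22995157), 1824 bases from the deposited Trpm3 locus and over the annotated gene, was at 2.60 (0.728 to 4.48), 0.238 (0 to 0.535) and 0.336 (0 to 0.754); Trpm3 was at 129, 3.25 and 6.76, and the Mir204 row at 8.11 (0 to 18.3), 0.305 and 0.720. All of these were lower and apart at day 5 except Mir204, whose intervals overlapped.

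On the higher side, XLOC_003007 lies 3682 bases from Btg1, an inhibitor of cell growth, and was listed at 0 before the burn with 1.23 (0.108 to 2.35) at day 5, and Btg1 was at 4.66, 15.3 and 9.89. XLOC_027167, 3374 bases from Plekho2, was at 0.143, 1.38 and 0.394, and Plekho2 at 2.25, 7.54 and 4.04. XLOC_009257, 314 bases from Myh9, the heavy chain of nonmuscle myosin, and over an annotated exon of Apol8, was at 0.0139, 1.13 and 0.365, with Myh9 at 46.2, 97.4 and 66.4 and not apart.

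**Figure D4:**
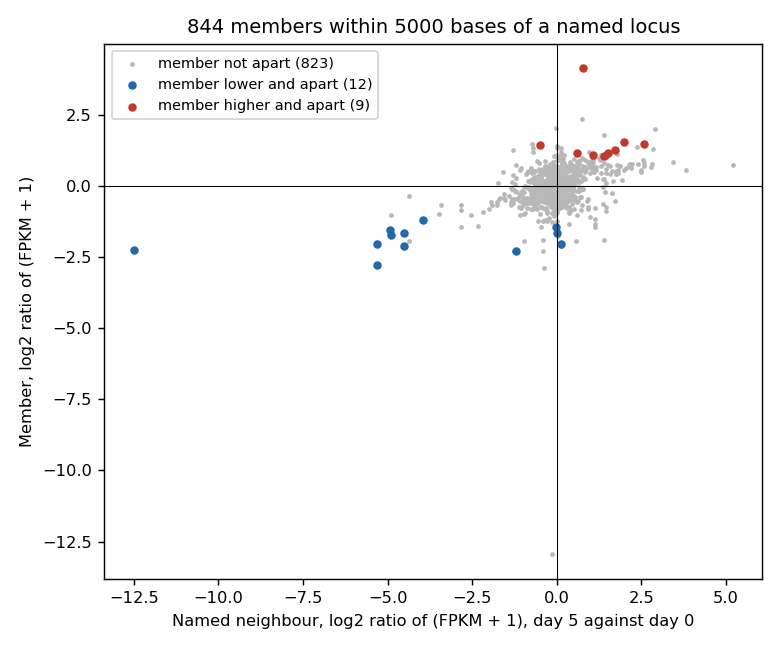
Log2 ratio of (FPKM + 1) at day 5 against day 0 of 844 members on their own span (vertical) against that of the nearest named locus within 5000 bases (horizontal). The signs match in 62.9% of pairs, and most of the 12 members lower and apart lie at the left, beside neighbours that were lower too.

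A row that names a microRNA gene or its host was the nearest named locus, on the same span or within 20000 bases, for 179 members. There were 49 such rows, and 78 of the members lay on the span of the row. Some of these rows join the microRNA with a longer host or another gene, such as Banp with Mir7237, so the span can be far longer than the microRNA. This set was chosen after the values were seen. With members below an FPKM of 1 included, unlike the medians above, their median log2 ratio at day 5 was -0.05, and that of all 2566 members -0.06. Single loci differed in sign. At Mir184 all 5 members were lower at both later times. The 3 on its span stood at 84.9 (0 to 181), 0.740 and 0.809 for XLOC_027222, at 33.7, 0.317 and 0.176 for XLOC_027223, and at 32.9, 0.158 and 0 for XLOC_027224. Their intervals at day 0 began at 0, so none of the 3 was apart. XLOC_027221 (chr9:89765189-89769519), 336 bases from the Mir184 locus, was at 1.32 (0.300 to 2.34), 0.00623 (0 to 0.0334) and 0.0928 (0 to 0.224) and was apart at both times. The named Mir184 row was at 21.2 (8.31 to 34.0), 0.431 (0 to 0.902) and 1.16 (0.150 to 2.17), apart at both times.

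At other microRNA loci the members differed less. Of 14 members at Mir31, 8 were lower at day 5 and 12 at day 15, with a median FPKM of 3.81, 2.66 and 1.69. At Mirlet7bhg, the host of let-7b and let-7c, 16 of 18 were lower at day 5, with a median of 1.36, 0.926 and 0.822. The locus that holds Mir99a, Mir99ahg and Mirlet7c-1 had 31 members, 25 of them higher at day 5 and 29 at day 15, with a median of 0.684, 0.831 and 1.11. At each of these 3 loci most members share 1 span (29 of 31 at Mir99a, 12 of 14 at Mir31 and all 18 at Mirlet7bhg). The members of a locus are thus not independent of each other.

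All 4 members on the span of Mir221 and Mir222 were lower at day 15, with a median of 13.7, 10.3 and 6.80. Around Mir181a-1 and Mir181b-1 on chromosome 1, 18 members in 1 run were all lower at day 5, with a median of 1.01, 0.578 and 0.718. None of these differences was apart by the intervals. On chromosome 12, a run of 10 members (chr12:109663836-109707148) near Mir431, Mir882 and Mir379 lies in the imprinted region that also holds the noncoding RNA genes Meg3, Rian and Mirg. All 10 were higher at day 5 and 5 of 10 at day 15, with a median of 0.540, 0.867 and 0.576. Rian was at 14.4, 37.9 and 33.7 and Meg3 at 24.2, 33.9 and 34.0, neither apart.

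Members often lie in runs. Joining members on their own span that lie within 20000 bases of each other gave 1167 groups, of which 39 hold at least 6 members, 420 members in all. Neighbouring members of a run may be pieces of 1 transcript, so their values are not replicates. The runs named here were chosen after their values were seen. The run with the most members apart lies at chr6:50894992-50929247, in a stretch whose nearest named locus, C530044C16Rik, is 80097 bases or more away. Its 7 members stood at 0.705 to 3.63 at day 0, at 0 to 0.00447 at day 5 and at 0 to 0.0438 at day 15, and 5 of them were lower and apart at day 5 and 3 at day 15. A further run of 11 members, chr6:50973296-51060045, lies just beyond it, with a median of 1.19, 0.130 and 0.200, and all 11 were lower at both times.

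Elsewhere the same direction was seen in a run of 17 members on chromosome X (chrX:166823065-166943175), all lower at both times, with a median of 1.19, 0.0770 and 0.0443 and 1 member, XLOC_028332, apart. At Dcdc5 on chromosome 2 the run of 15 members on 5 spans was lower throughout, with a median of 2.12, 0.175 and 0.168. Beside Pantr1, a noncoding RNA gene next to a neural transcription factor gene, 16 members on 2 spans had a median of 1.56 at day 0 and 0 at both later times, with none apart. Beside Epha4, an ephrin receptor gene, 10 members were lower at both times, with a median of 1.51, 0.178 and 0.563.

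Some of the runs in the other direction lay beside genes of matrix and immune cells. Others lay beside different genes, such as Caap1 and Fem1c, where all members were higher at day 5. At chr9:79554634-79589032, near the named locus of Col12a1, a collagen that binds to larger fibrils, 7 members stood at 0.0157 to 0.156 at day 0, 0.856 to 2.53 at day 5 and 0.109 to 0.844 at day 15. All were higher at day 5, and XLOC_027198 and XLOC_027200 were apart. Col12a1 was at 92.5, 148 and 86.4, not apart. At chr9:123926010-123955556, beside Ccr1, a chemokine receptor gene of white blood cells, 7 members had a median of 0, 0.804 and 0.0712, all higher at day 5 and none with an FPKM of 1. At chr19:11375392-11393244, where RefSeq places Ms4a4a, a membrane protein gene of macrophages, 8 members had a median of 0.693, 4.45 and 5.56 and all 8 were higher at both times, with none apart. The neutrophil and macrophage markers given above were also higher at day 5, and their part in these values was not tested.

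**Figure D5:**
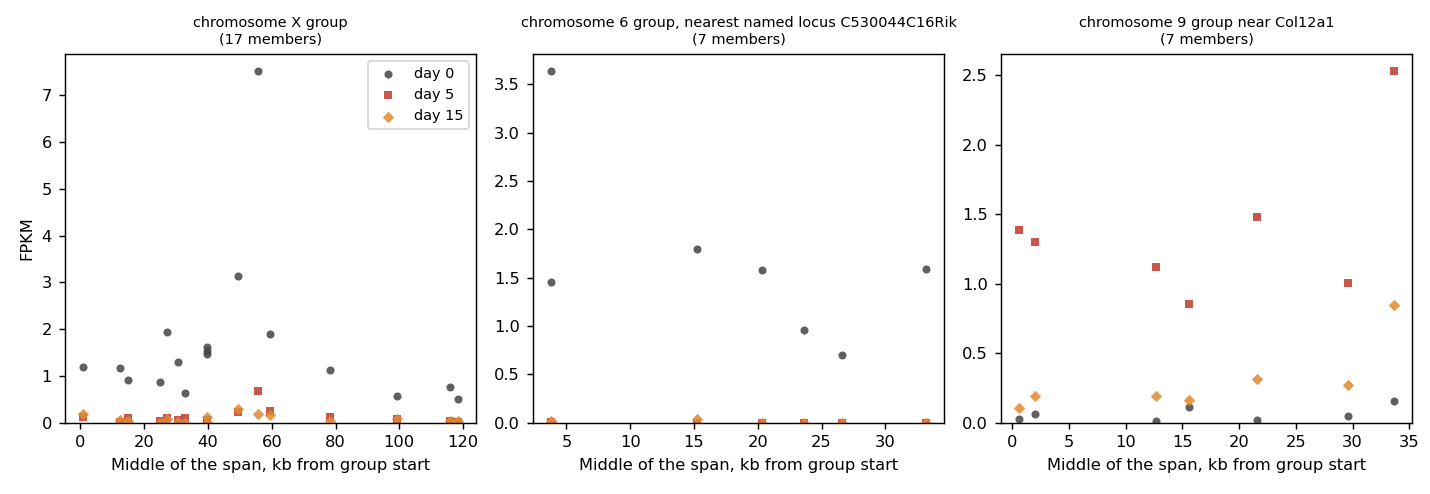
FPKM of each member of 3 runs in the 3 groups, against the middle of its span in kilobases from the start of the run. In the chromosome X and chromosome 6 runs the day 0 points lie above those of both later groups, and in the chromosome 9 run the day 5 points lie highest.

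A list of 55 long noncoding RNA genes with a symbol was set beside the members, and 43 of them are in the table. Of 31 tested at day 5, 3 were higher and apart and none was lower, with a median log2 ratio of 0.07, beside 3.42% and 2.5% of all loci tested and their median of -0.09. H19, the imprinted noncoding RNA of growing tissue, was at 3.83 (0.402 to 7.26), 150.2 (79.2 to 221) and 55.2 (27.4 to 83.0), higher and apart at both times. Dnm3os, the host of several microRNAs of connective tissue, was at 1.53 (0 to 3.45), 7.52 (3.72 to 11.3) and 4.32 (1.28 to 7.35), and was higher and apart at day 5. The row that joins Snhg1 and Snord22 was at 18.0 (0 to 46.8), 259.6 (209 to 310) and 30.5 (0 to 73.4), and was the only gene of the list lower and apart at day 15 against day 5. Of 32 tested at day 15 against day 0, H19 alone was apart. Malat1 and Neat1, the most abundant of the list in the untreated group, and Xist, the RNA of the inactive X chromosome, had overlapping intervals in every comparison.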

How the data were processed

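The deposited table holds FPKM, which the authors computed per locus with Cuffdiff and pooled over the 2 samples of each group, with an interval and a status. The build was mm10 and the tools were Bowtie2 2.2.6, TopHat2 2.1.0, Cuffdiff and Cufflinks 2.2.1, per the submitters' processing notes. Strandedness, read totals and the meaning of the interval are not given in the sources used here. With 0 columns for single samples, no test was run; differences are log2 ratios with a pseudocount of 1, which understates the change of low loci, and the calls use the authors' intervals.

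The locus column counts from 0 at its start and was changed to count from 1: of 22315 loci with 1 symbol, the start then equals the GENCODE M21 gene start for 5753, and for 537 as written, and 98.7% overlap that gene. Members sharing a span are not independent. Members named are, for every comparison, the 8 extreme log2 ratios of either direction among those apart, the 8 highest in each group, the 4 longest, and 3 on each side of both limits; other members named were chosen after their values were seen. The members and lists were chosen with earlier results of these data known. No genome sequence was used, so GC content, masked share and AATAAA at the loci were not computed; promoter windows were used instead. The call rule was tested on simulated data, with changes put only on loci well above the median level of the members. That test does not show how the rule does on low members. Alternatives varied the pseudocount, filter, ratio limit, intervals, scaling, span limit and the distance that counts as near. Python 3.11.15, numpy 2.4.6, pandas 2.3.3 and matplotlib 3.10.9 were used.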

Additional observations from a re-analysis of the deposited data

How the results depend on the processing

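The count of members apart at day 5 against day 0 (58) became 34 when the higher group had to reach an FPKM of 2, 32 with a log2 ratio of at least 1.5, and 476 when the intervals were not used (196 higher, 280 lower). At day 15 against day 0 the count went from 42 to 394 without the intervals, and at day 15 against day 5 from 5 to 157. The other settings (pseudocounts of 0.1 and 0.5, no filter on low values, scaling by the median ratio of named loci, span limits of 500 and 2000 bases, and members sharing no span with a named gene) kept these counts within 1.5 times, as did leaving out members over an FPKM of 1000 and the mitochondrial row, chosen after seeing the data. The number of members near a gene was 490 within 5000 bases, 162 within 1000 and 654 within 10000. The 105 calls of single members were recomputed under 7 settings: of these 735 values, 653 stayed apart, 82 did not and 0 changed sign. Smaller pseudocounts, no filter and no intervals can only loosen the rule, so all 105 calls had to stay under each of these. Of the 105, 67 stayed when the higher group had to reach 2. With a log2 ratio of at least 1.5, 66 stayed, and with scaling 100. No paired analysis was possible because the table holds 1 pooled value per group and no columns for single samples; leaving out each replicate and a replicate block were not run for the same reason. Without read totals, the depth behind a low FPKM is unknown, and most members have an interval that begins at 0.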

Other observations

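Some further runs of members had values that differed between the burned groups in sign or size. The runs and members named here were chosen after their values were seen. At chr2:31314396-31460987, near Ass1, an enzyme of arginine synthesis, and Ncs1, a calcium sensor, 13 members were all lower at day 5 and 12 of 13 were higher at day 15, with a median FPKM of 1.89, 0.567 and 2.21 in the 3 groups; none was apart. Beside Caap1, 10 members on 1 span were all higher at day 5, with a median of 0.156, 1.27 and 0.410. XLOC_026384, at the 5′ end of Muc16, the membrane mucin of the ocular surface, was listed at 0 in the untreated group, with 1.07 (0 to 2.77) on day 5 and 7.92 (0 to 18.1) on day 15.

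Loci without a symbol that are shorter than 1000 bases were not among the members. Of 1813, 1758 had an FPKM of at least 0.5 and 41 passed 1000, and they held 90.9%, 93.1% and 93.4% of the summed FPKM of the 3 groups, beside 3.71%, 1.04% and 1.96% for the members. Most of the first share in every group belongs to 1 locus of 105 bases, XLOC_011627, and nearly all of the members' share to XLOC_005361 and XLOC_019825. The member on chromosome Y, XLOC_028539, stood at 0.489 before the burn, 0.969 (0 to 1.96) at day 5 and 0.362 (0 to 0.815) at day 15, in mice labelled female, with the 4 Y-linked genes given above at 0.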
